A study of Mus musculus with 71 samples.

Results

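Iron and calcium enter the body through the enterocytes of the small intestine, and 9 genes of these 2 routes are described here in the mouse intestine with and without the butyrophilin-like gene Btnl2. The genes were taken as a fixed list, 9 of the 24475 gene identifiers that each of 3 bulk RNA-sequencing tables holds, and all 9 were found in every table. They are Slc11a2, Cybrd1, Slc40a1, Heph, and Tfrc for iron, and Trpv6, S100g, Atp2b1, and Vdr for calcium.

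All mice were of the C57BL/6 strain and were either Btnl2-/- (Btnl2-KO) or WT. The Btnl2-KO allele carries LacZ at the start codon of Btnl2 together with a selection cassette, so that the gene is lost in every cell type. KO and WT animals were littermates from heterozygous parents and shared cages. Bulk RNA-sequencing was performed on 16 libraries of intestinal epithelial cells (IECs) from mice aged 7 weeks, on 22 libraries of sorted γδ intraepithelial lymphocytes (IELs) from mice whose labels give 10 weeks, and on 27 libraries of whole small intestine or colon from mice whose titles carry the mark YNG and no age in weeks. For the IEC fraction there were 2 KO and 3 WT libraries of the duodenum, 3 and 3 of the jejunum, and 3 and 2 of the ileum. For γδ IELs there were 3 KO and 4 WT libraries of the duodenum, 4 and 4 of the jejunum, and 3 and 4 of the ileum, each a pool of 2 mice. Whole tissue gave 14 small intestine libraries, 7 of each genotype, and 13 colon libraries, 7 KO and 6 WT. The segments are the proximal, middle, and distal of 3 equal lengths of small intestine, so that duodenum here means the whole proximal part. IECs were the top layer of a density gradient after EDTA release, which is not a sort, and γδ IELs were sorted on CD45 and the γδ TCR. Nothing tied a whole tissue library to a position along the small intestine.

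Dietary iron is reduced at the brush border, carried across the apical membrane, and exported at the basolateral side, where it is oxidised for loading onto transferrin in blood. Transcellular calcium absorption follows a similar order, through an apical channel, a cytosolic carrier protein, and a basolateral pump, and is the route that vitamin D induces. Both routes are known to be strongest in the proximal small intestine, and vitamin D-dependent calcium transport is also known in the large intestine.

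Of the iron genes, Slc11a2 (Entrez Gene 18174, chromosome 15 from 100387898 to 100424209) encodes DMT1, the apical importer of ferrous iron. Cybrd1 (73649, chromosome 2 from 71118054 to 71142926) encodes duodenal cytochrome b, a brush border ferric reductase. Slc40a1 (53945, chromosome 1 from 45908070 to 45926532) encodes ferroportin, the only known cellular iron exporter. Heph (15203, chromosome X from 96455436 to 96574485) encodes hephaestin, the ferroxidase that acts beside ferroportin. Tfrc (22042, chromosome 16 from 32608896 to 32632794) encodes the transferrin receptor, which takes up iron from plasma and is high in dividing cells. Of the calcium genes, Trpv6 (64177, chromosome 6 from 41620619 to 41636405) encodes the apical calcium channel. S100g (12309, chromosome X from 162961992 to 162964599) encodes calbindin-D9k, the cytosolic calcium carrier of enterocytes. Atp2b1 (67972, chromosome 10 from 98914630 to 99026143) encodes the plasma membrane calcium pump PMCA1, which many cell types express. Vdr (22337, chromosome 15 from 97854427 to 97908296) encodes the vitamin D receptor. Positions are those of the RefSeq annotation of GRCm38.p6, and the labels name GRCm38.

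S100g and Trpv6, both classical targets of the vitamin D receptor, had the largest differences between intestinal sites, so the 250 bases before their transcript starts are printed here from RefSeq, GRCm38.p6, read 5′ to 3′ on the gene's strand. The S100g window is chrX:162964600-162964849 on the minus strand and the Trpv6 window is chr6:41636406-41636655 on the minus strand. Capitals mark matches to the nuclear receptor half-site letters AGGTCA and GGTTCA on either strand, which appear as TGACCT and TGAACC when they lie on the opposite strand.
S100g: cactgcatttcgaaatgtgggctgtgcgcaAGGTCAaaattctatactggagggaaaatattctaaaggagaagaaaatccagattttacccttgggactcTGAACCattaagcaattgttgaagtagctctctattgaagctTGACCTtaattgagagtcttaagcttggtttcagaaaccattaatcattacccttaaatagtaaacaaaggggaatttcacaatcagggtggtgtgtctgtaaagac
Trpv6: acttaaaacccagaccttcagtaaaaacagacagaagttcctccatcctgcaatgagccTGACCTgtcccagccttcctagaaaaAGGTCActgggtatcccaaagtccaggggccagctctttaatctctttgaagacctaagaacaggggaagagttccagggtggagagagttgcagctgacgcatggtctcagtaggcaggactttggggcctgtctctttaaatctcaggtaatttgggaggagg
The S100g window held AGGTCA from 220 to 215 bases before the start, its reverse from 107 to 102 bases, and the reverse of GGTTCA from 149 to 144 bases. The Trpv6 window held AGGTCA from 165 to 160 bases before the start and its reverse from 191 to 186 bases. No match shared a base with another. The letters AGGTCA were present in 14.0% and GGTTCA in 8.85% of all 32851 windows of this length, so neither is rare. The other letters searched on both strands were AGTTCA (11.8% of windows), GGGTCA (11.6%), the CDX-type site TTTATG (10.8%), the hypoxia-response core ACGTG (16.6%), and the GATA site AGATAA (9.99%). Among the 8 windows of the 6 genes with an entry, that of Vdr held 1 AGTTCA and 1 of the Tfrc windows held 1 ACGTG. The windows of Cybrd1 and Atp2b1 and the other Tfrc window held none of these letters.

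Total counts ran from 15397757 to 38258472 per IEC library, 13444958 to 30029485 per γδ IEL library, and 13619309 to 21708721 per tissue library. A gene at 3 counts lies at 0.0784 to 0.223 CPM (counts scaled to a common library size) at these depths, and levels under that were not detectable reliably. Levels below are CPM scaled by TMM within a table, and the tables were normalised separately. The knockout was seen in the counts, with Btnl2 at 0 to 0.123 CPM in KO and 2.47 to 9.89 CPM in WT γδ IELs, 0.675 to 2.44 and 23.9 to 103 CPM in small intestine, and 0 to 0.0452 and 0.651 to 2.40 CPM in colon. In IECs, Btnl2 was at 0.342 to 0.595 CPM in 6 of 8 KO libraries and 25.1 to 67.7 CPM in WT, but at 5.45 CPM in the library labelled duodenum KO 1003459 and 19.5 CPM in the one labelled jejunum KO 1003474.

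Position markers also went against the labels of 3 IEC libraries. Fabp6, the ileal bile acid-binding protein, was at 222 to 613 CPM in the other ileal libraries and at 0.347 to 20.2 CPM in the other duodenal and jejunal libraries, and Gata4, a factor of the proximal small intestine, was at 25.9 to 34.9 and 110 to 217 CPM, respectively. The libraries labelled 1003459 (Fabp6 220 CPM, Gata4 50.7 CPM) and 1003474 (484 and 37.7 CPM) lay near the ileal values, and the library labelled ileum KO 1003481 (0.231 and 153 CPM) near the proximal ones. In whole small intestine, Gata4 was at most 2.30 CPM and Fabp6 at least 1564 CPM in 11 of 14 libraries, which is an ileal pattern, whereas KO 964939, WT 964950, and WT 964952 had Gata4 at 95.6, 82.7, and 15.1 CPM with Fabp6 at 431, 105, and 1174 CPM. Called differences and counts of members that rest on these 6 libraries are also given without them. Sorted γδ IELs held epithelial RNA: all 11 pan-epithelial marker genes were detected, and their summed level was 602 to 8778 CPM against 7984 to 13455 CPM in IECs. The 10 of 12 γδ T cell markers in the table summed to 32169 to 89090 CPM in γδ IELs.

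In the WT duodenal IEC fraction, the genes differed widely in level per length. Taken as CPM per kilobase of exon, the order was Vdr at 82.0 ± 5.31 (SD, n = 3), Tfrc at 81.1 ± 38.7, Heph at 25.4 ± 1.39, Slc40a1 at 16.9 ± 6.40, Atp2b1 at 16.8 ± 4.50, Slc11a2 at 12.1 ± 3.07, S100g at 10.7 ± 8.69, Cybrd1 at 0.442 ± 0.0069, and Trpv6 at 0.0825 ± 0.0699. Vdr and Tfrc did not differ beyond their spread, nor did Slc40a1, Atp2b1, Slc11a2, and S100g among themselves. Cybrd1 and Trpv6 stood at the bottom of this order, clear of the other 7 genes. In WT colon the same order on the same scale began with Vdr at 93.6 ± 15.5 (n = 6) and Slc40a1 at 72.3 ± 35.1, and ended with S100g at 1.79 ± 2.02, Cybrd1 at 1.42 ± 0.397, and Trpv6 at 1.41 ± 0.751, which did not differ beyond their spread.

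Along the WT small intestine, the IEC fraction had its highest S100g and Trpv6 levels in the duodenum, its highest Slc40a1 and Atp2b1 levels in the ileum, and overlapping levels of Heph, Tfrc, and Vdr in all 3 segments. Atp2b1 alone passed the test, which asked for a fold change above 1.5 beside a Benjamini-Hochberg FDR below 0.05, in edgeR's quasi-likelihood test over all genes. It rose in the ileum against the duodenum, 1 of 8 tested members where 6.59% of all 13046 genes tested were called and 4.21% were called higher. Between jejunum and duodenum edgeR called 0 of 8 members, with 4 at an unadjusted p under 0.05, and 0.767% of all genes were called, 0.314% as lower. DESeq2 called 2 members, both lower, and 3.27% of all genes. Between ileum and jejunum edgeR called 0 of 8, with 2 at an unadjusted p under 0.05, and 0.644% of all genes were called. DESeq2 called 1 member and 2.19% of all genes. Trpv6 had too few counts to be tested in IECs. In these bulk samples, fewer cells of a type and less RNA per cell cannot be told apart. Villus enterocyte markers summed to 5793 to 10681 CPM in the WT duodenum, 2651 to 7811 CPM in the jejunum, and 3322 to 3859 CPM in the ileum. Crypt and cycling markers summed to 2826 to 4449, 3174 to 4146, and 2508 to 3037 CPM in the same order. Their part in the segment differences was not tested.

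**Figure D1:**
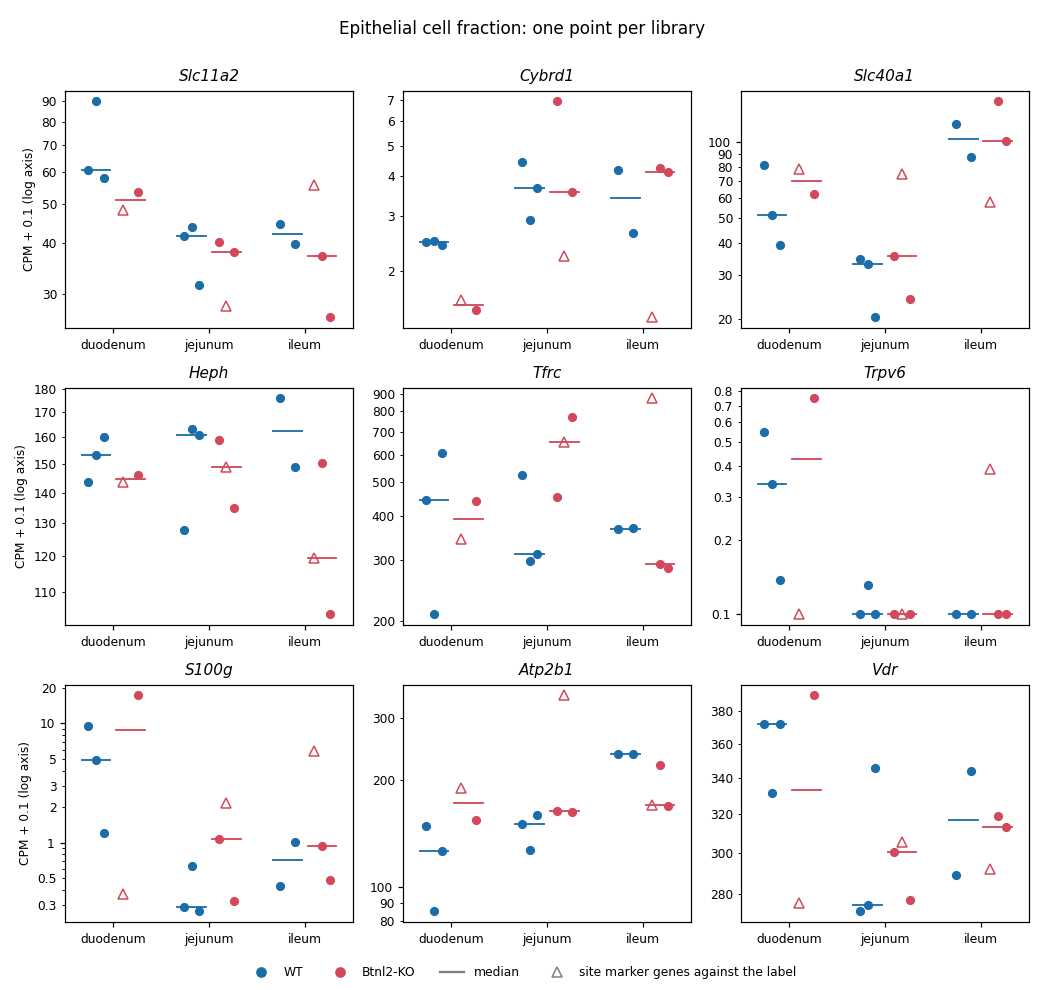
Level of each gene in the IEC fraction by segment (horizontal axis), as CPM + 0.1 on a log axis that differs between panels, 1 point per library (blue WT, red Btnl2-KO, line at the median, open triangles for the 3 KO libraries whose Fabp6 and Gata4 go against their label). S100g and Trpv6 are highest in the duodenum, Slc40a1 and Atp2b1 in the ileum, and the triangles often sit apart from the other KO points of their segment.

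Of the iron genes, Slc11a2 was at 60.7, 89.6, and 57.8 CPM in the 3 WT duodenal libraries, 41.5, 43.7, and 31.3 CPM in the jejunum, and 44.6 and 39.7 CPM in the ileum. Every duodenal value lay above every jejunal and ileal value, but the log2 differences, -0.82 ± 0.21 (SE) for jejunum and -0.69 ± 0.24 for ileum against duodenum, did not pass in edgeR (adjusted p = 0.154 and 0.144). DESeq2 called the first (adjusted p = 0.0256), and limma-voom called neither (0.0939 and 0.0596). Slc40a1, the exporter, followed another pattern. It was at 81.0, 51.3, and 39.1 CPM in the duodenum, 34.3, 33, and 20.2 CPM in the jejunum, and 118 and 87.1 CPM in the ileum. The 3 segments did not overlap, with the jejunum lowest and the ileum highest. The ileum was 1.82 ± 0.34 above the jejunum on the log2 scale, which missed the threshold in edgeR (adjusted p = 0.0612) and passed it in DESeq2 (1.24e-04) and limma-voom (0.0169). Macrophages are also known for Slc40a1. The 10 myeloid marker genes, none of them at 0, summed to 35.4 to 39.7 CPM in the WT duodenum, 53.1 to 64.2 CPM in the jejunum, and 103 to 111 CPM in the ileum, and smooth muscle and stroma markers to 0.248 to 0.668, 0.540 to 1.10, and 2.04 to 15 CPM. Their part in the Slc40a1 difference was not tested.

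The ferric reductase Cybrd1 was low throughout, at 2.32 to 2.38 CPM in the duodenum, 2.81 to 4.35 CPM in the jejunum, and 2.55 and 4.09 CPM in the ileum. These values place the duodenum at the bottom, and none of the differences passed. Heph was at 143 to 160, 128 to 163, and 149 and 176 CPM in duodenum, jejunum, and ileum, with overlap between all segments. Tfrc varied more between libraries of 1 segment than between segments, from 209 to 609 CPM in the duodenum alone, against 297 to 527 CPM in the jejunum and 366 and 370 CPM in the ileum.

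Of the calcium genes, S100g was at 9.43, 4.82, and 1.10 CPM in the WT duodenum, 0.191, 0.537, and 0.165 CPM in the jejunum, and 0.328 and 0.910 CPM in the ileum. All duodenal libraries were above all others, and the 3 of them spanned a wide range. The pooled counts, 320 in the duodenum against 26 in the jejunum and 34 in the ileum, gave ratios, scaled to library size, of 14.7 (95% interval for counting error only, 9.84 to 22.8) and 7.35 (5.15 to 10.8). The log2 differences over libraries were -4.00 ± 0.83 and -3.01 ± 0.90. With this spread neither passed in edgeR (adjusted p = 0.0744 and 0.0895) or in limma-voom (0.148 and 0.0656). DESeq2 called both (1.31e-05 and 0.00349). Without WT library 1003468, edgeR called S100g in both comparisons (adjusted p = 0.0178 and 0.0183). That library was picked because its duodenal S100g was lowest, so this fit adds no separate evidence. Library 1003468 also had the lowest villus enterocyte sum (5793 CPM) and the highest crypt and cycling sum (4449 CPM) of the WT duodenum.

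Trpv6 was barely detected, at 0.447, 0.238, and 0.0380 CPM in the duodenum, 0.0316 CPM in 1 jejunal library, and 0 in the other jejunal and the ileal libraries. These are 15 pooled counts in the duodenum and 1 in the jejunum, a ratio, scaled to library size, of 17.9 (95% counting interval 2.75 to 754), with counts of 0 in 2 ileal libraries that allow up to 0.111 and 0.119 CPM. Atp2b1, the basolateral pump, ran the other way. It was at 148, 85.1, and 126 CPM in the duodenum, 150, 127, and 159 CPM in the jejunum, and 238 and 237 CPM in the ileum, so that the ileal libraries lay above all others. It rose by 1.01 ± 0.25 on the log2 scale in the ileum against the duodenum (edgeR adjusted p = 0.0433). The adjusted p was 0.155 with all IEC libraries in 1 fit, and the call was lost without any single one of 6 of the 8 WT libraries (1003468, 1003476, 1003477, 1003480, 1003488, and 1003491), with adjusted p from 0.00347 to 0.223 over all alternatives and, in those 6 fits, log2 differences of 0.99 to 1.05. Vdr was at 332 to 372, 272 to 345, and 289 and 344 CPM, with overlapping segments.

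The KO libraries whose markers match their labels followed the same order of segments for S100g, Trpv6, and Slc40a1. Duodenum KO 1003464 had S100g at 17.1 CPM and Trpv6 at 0.649 CPM, both above every WT library. Ileum KO 1003484 and 1003485 had Slc40a1 at 145 and 101 CPM, S100g at 0.844 and 0.389 CPM, and Trpv6 at 0. The 3 libraries in doubt departed from their labels in the members as in the markers. The library labelled duodenum KO 1003459 had S100g at 0.268 CPM, Trpv6 at 0, and Atp2b1 at 191 CPM. The one labelled jejunum KO 1003474 had Slc40a1 at 74.4 CPM and Atp2b1 at 348 CPM, each above all jejunal libraries of either genotype, with S100g at 2.05 CPM. The one labelled ileum KO 1003481 had S100g at 5.77 CPM, Trpv6 at 0.288 CPM, and Slc40a1 at 58.1 CPM, with Tfrc at 872 CPM, the highest of all 16 libraries.

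In sorted γδ IELs, S100g and Slc40a1 differed between segments, and both are best known from enterocytes. In WT mice, S100g fell in the jejunum and in the ileum against the duodenum, and Slc40a1 fell in the jejunum against the duodenum and rose in the ileum against the jejunum. For jejunum against duodenum edgeR called 2 of 8 members, both lower, where 22.5% of all 12899 genes were called and 12.1% were called lower, so the share is near the background. For ileum against duodenum it called 1 of 8, lower, where 2.11% of genes were called and 1.03% were called lower, and for ileum against jejunum 1 of 8, higher, where 21.9% were called and 11.4% were called higher. The pan-epithelial sum was 3218 to 5288 CPM in the WT duodenum, 2004 to 5439 CPM in the jejunum, and 3414 to 8778 CPM in the ileum, and its part in these differences was not tested beyond a fit with the mean log2 CPM of those markers as a covariate. The summed villus enterocyte markers were 1013 to 5229 CPM in the WT duodenum, 368 to 1232 CPM in the jejunum, and 208 to 628 CPM in the ileum, and their part, which for S100g has the same order of duodenum above the rest, was not tested.

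**Figure D2:**
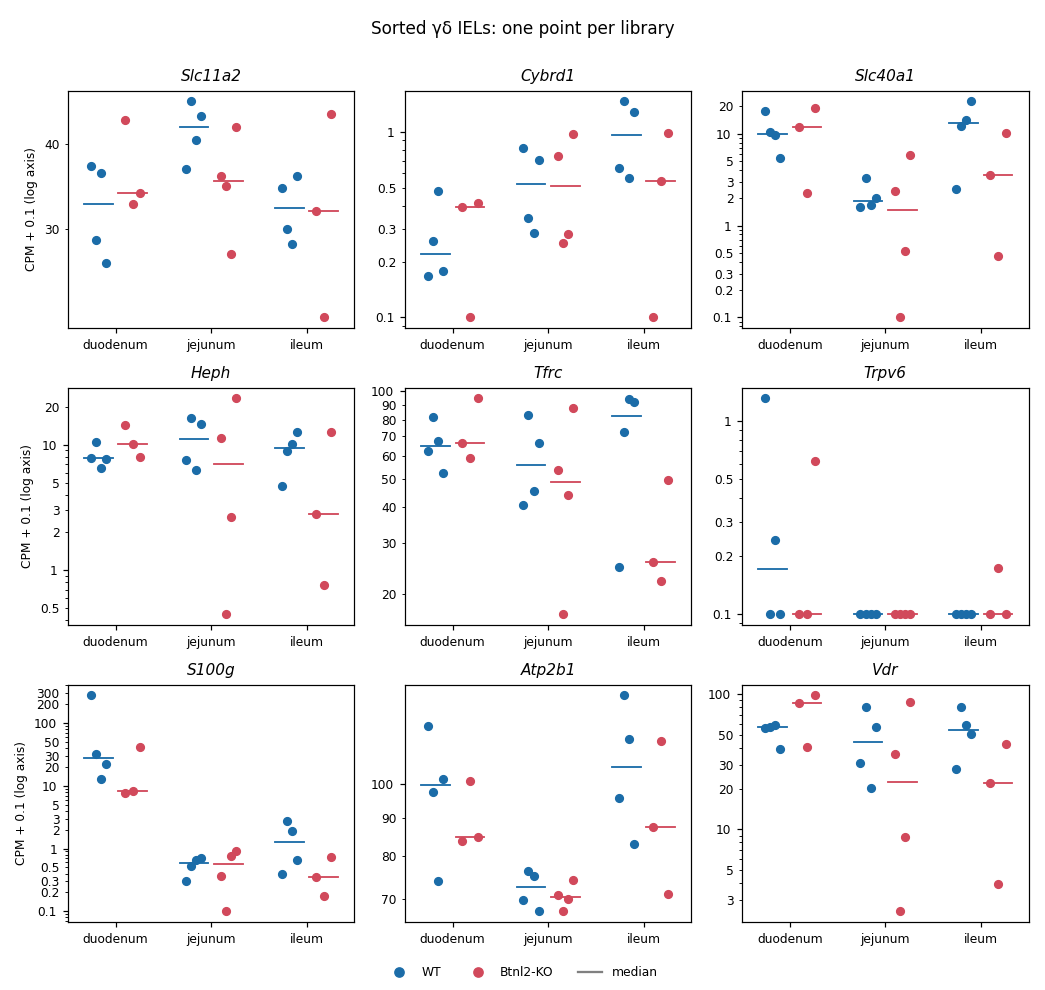
Level of each gene in sorted γδ IELs by segment (horizontal axis), as CPM + 0.1 on a log axis that differs between panels, 1 point per library (blue WT, red Btnl2-KO, line at the median). S100g is at 7.55 CPM or more in every duodenal library and at 2.65 CPM or less in every other library, while Slc11a2 spans a narrow range in all segments.

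S100g was at 276, 32.6, 12.7, and 22.1 CPM in the WT duodenum, 0.205, 0.424, 0.560, and 0.610 CPM in the jejunum, and 0.298, 2.65, 1.80, and 0.565 CPM in the ileum. The duodenal libraries stood clear of all others. The log2 differences were -7.56 ± 1.09 for jejunum and -6.04 ± 1.0 for ileum against duodenum (edgeR adjusted p = 0.00208 and 0.00537), and -5.63 ± 0.62 and -4.09 ± 0.58 without library 1105579, which held 276 CPM (8.76e-04 and 0.00315). limma-voom did not call the second (adjusted p = 0.0616). The KO duodenum had S100g at 7.55, 8.22, and 40.8 CPM, the KO jejunum at 0 to 0.827 CPM, and the KO ileum at 0.247, 0.0735, and 0.624 CPM. Between KO ileum and KO duodenum edgeR called 0 of 8 members, with 2 at an unadjusted p under 0.05, and 0.00775% of all genes. S100g there was -5.82 ± 1.25 (edgeR adjusted p = 0.263) with no overlap between the segments, and DESeq2 called it (1.02e-05), as did edgeR with the pan-epithelial covariate (-4.95 ± 0.96, adjusted p = 0.0401). limma-voom did not call it (adjusted p = 0.248).

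The duodenal level of S100g was higher in all 4 WT γδ IEL libraries than in any WT IEC library of the duodenum (1.10 to 9.43 CPM). The pan-epithelial sum was 3218 to 5288 CPM in these γδ IELs and 9681 to 13455 CPM in the IECs. Villus enterocyte markers summed to 1013 to 5229 and 5793 to 10681 CPM, and crypt and cycling markers to 485 to 744 and 2826 to 4449 CPM. The part of epithelial RNA in the S100g level was not tested. These comparisons cross tables normalised separately, mice of different age, and an uncertain library chemistry, and were not tested. Trpv6 was likewise seen in γδ IELs of the duodenum, at 1.21 and 0.143 CPM in 2 WT libraries and 0.522 CPM in 1 KO library, and 0 in the other 4 duodenal libraries. The 2 libraries with the most Trpv6, WT 1105579 and KO 1105578, also had the most S100g of their groups (276 and 40.8 CPM). Library 1105579 had the highest summed villus enterocyte markers of all γδ IEL libraries, 5229 CPM, and a pan-epithelial sum of 5288 CPM.

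Slc40a1 was at 17.4, 10.2, 9.57, and 5.34 CPM in the WT duodenum, 1.48, 3.21, 1.59, and 1.92 CPM in the jejunum, and 2.38, 12.0, 13.9, and 22.5 CPM in the ileum. The jejunum lay below the duodenum without overlap and overlapped the ileum through library 1105587. The log2 differences were -2.38 ± 0.54 for jejunum against duodenum and 2.63 ± 0.54 for ileum against jejunum (edgeR adjusted p = 0.00593 and 0.00546). With the pan-epithelial markers (their mean log2 CPM) as a covariate they were -1.93 ± 0.43 (adjusted p = 0.00454) and 1.51 ± 0.53 (0.0654), and with all γδ IEL libraries in 1 edgeR fit neither was called (adjusted p = 0.0888 and 0.0734). The same covariate fit called Heph higher in the jejunum than in the duodenum (0.66 ± 0.22) and than in the ileum (-0.96 ± 0.26 for ileum against jejunum), and Vdr lower in the ileum than in the duodenum (-0.59 ± 0.15) and the jejunum (-0.63 ± 0.17), none of which was called without it. Without the covariate the 2 Vdr differences were 0.05 ± 0.37 and 0.23 ± 0.37, so their sign turned with it. Of all 12899 genes the covariate fit called 542 for ileum against duodenum and 1276 for ileum against jejunum. For jejunum against duodenum the alternatives called 2076 to 4275.

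The members differed in how far they ranged over γδ IEL libraries. Slc11a2 ran only from 22.1 to 46.2 CPM and Atp2b1 from 67.3 to 131 CPM over all 22 libraries. Vdr ran from 2.37 to 98 CPM, Heph from 0.344 to 23.3 CPM, Slc40a1 from 0 to 22.5 CPM, and Tfrc from 17.0 to 94.6 CPM. The library with the lowest pan-epithelial sum, jejunum KO 1105592 at 602 CPM, had the lowest Vdr, Heph, and Tfrc and no counts of Slc40a1 or S100g, but Slc11a2 at 34.6 CPM and Atp2b1 at 67.4 CPM. In ileum KO 1105585, at 1003 CPM of pan-epithelial markers, Vdr was at 3.82 CPM and Heph at 0.661 CPM, with Slc11a2 at 22.1 CPM and Atp2b1 at 114 CPM. Atp2b1 was at 67.3 to 76.2 CPM in the WT jejunum and 83.0 to 131 CPM in the WT ileum without overlap. Its log2 difference of 0.58 ± 0.16 (edgeR adjusted p = 0.0153) lay just under the fold minimum. Cybrd1 was low, at 0.0673, 0.159, 0.383, and 0.0786 CPM in the WT duodenum, 0.716, 0.242, 0.187, and 0.610 CPM in the jejunum, and 0.536, 1.36, 0.467, and 1.19 CPM in the ileum. The ileum lay above the duodenum without overlap, but the log2 difference of 2.23 ± 0.67 did not pass (edgeR adjusted p = 0.126).

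In whole tissue, the colon had far more Trpv6 than the small intestine, more Slc40a1, and less S100g. Most small intestine libraries had an ileal Fabp6 and Gata4 pattern, so this sets colon mainly against ileum-like tissue and not against the whole small intestine. The 10 pancreas markers summed to 129 to 1073 CPM in WT colon and 2.99 to 7.82 CPM in WT small intestine. In KO mice they summed to 137 to 1643 and 3.36 to 6.45 CPM. Villus enterocyte markers summed to 202 to 362 CPM in WT colon and 2085 to 13180 CPM in WT small intestine. The part of either in the organ differences was not tested. In WT mice, edgeR called 4 of 9 members between colon and small intestine, where 27.6% of all 15162 genes tested were called. Trpv6 and Slc40a1 rose in the colon, and S100g and Cybrd1 fell. In Btnl2-KO mice it called 3 of 9, against 30.2% of 14798 genes, with Trpv6 and Slc40a1 higher and Heph lower in the colon. Without the 3 small intestine libraries with high Gata4 it called 5 of 9 in WT mice (Trpv6 and Slc40a1 higher, S100g, Heph, and Atp2b1 lower) and the same 3 in KO mice. Over all genes the WT fit without them called 3943, where the full WT fit called 4185 (27.6%). The KO count without them is not given. Its lowest value over all alternatives was 4441, where the full KO fit called 4463 (30.2%). No share of genes tested is given for the fits without these libraries.

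**Figure D3:**
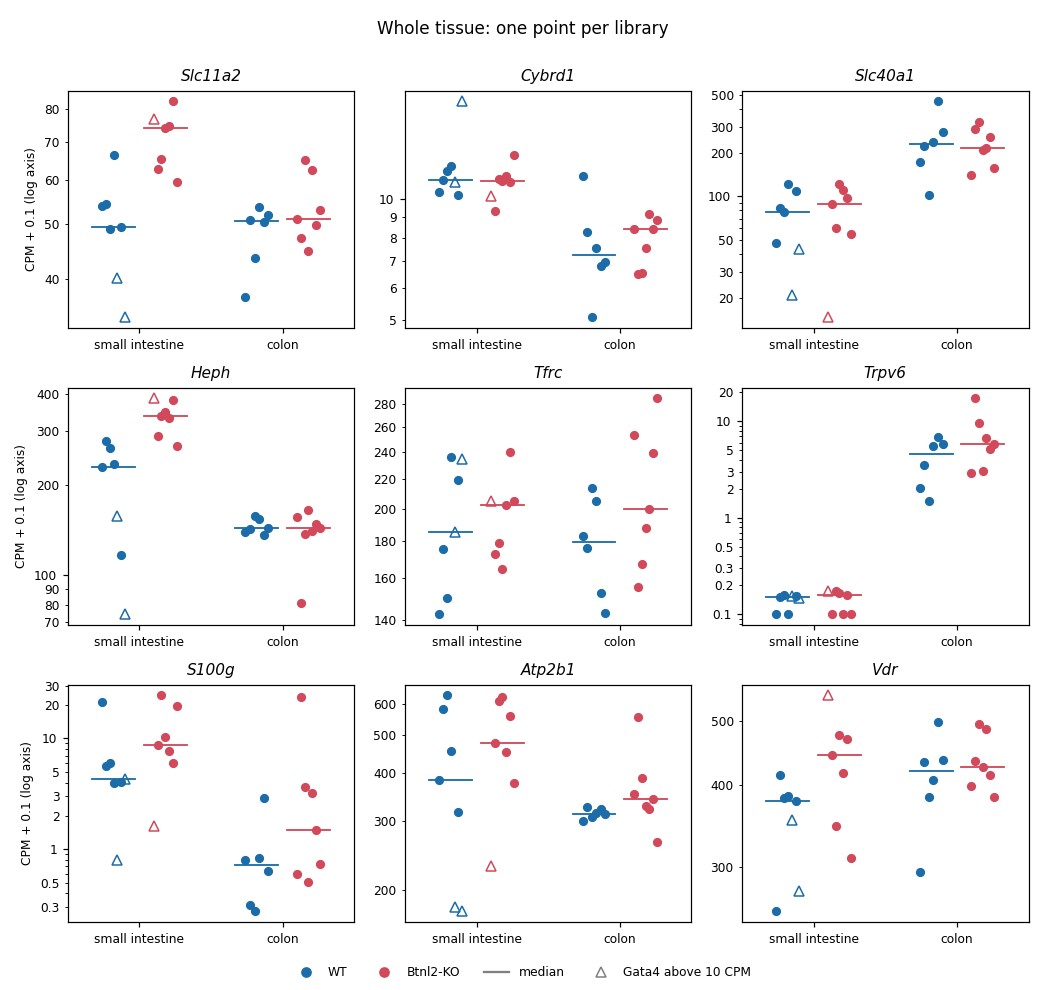
Level of each gene in whole small intestine and colon (horizontal axis), as CPM + 0.1 on a log axis that differs between panels, 1 point per library (blue WT, red Btnl2-KO, line at the median, open triangles for small intestine libraries with Gata4 above 10 CPM). Trpv6 separates colon from small intestine in both genotypes, where most small intestine libraries have an ileal Fabp6 and Gata4 pattern. The triangles hold the 3 lowest small intestine values of Slc40a1 and of Atp2b1.

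Trpv6 was at 0 to 0.0584 CPM (median 0.0503) in WT small intestine and 0 to 0.0761 CPM (median 0.0599) in KO small intestine, at most 1 count per library. In the colon it was at 1.40 to 6.73 CPM (median 4.47) in WT and 2.81 to 17.2 CPM (median 5.76) in KO mice. No small intestine library reached the lowest colon library. The pooled ratio of colon to small intestine, scaled to library size, was 109 (95% counting interval 46.2 to 336) in WT and 188 (73.1 to 692) in KO mice, on 5 and 4 small intestine counts. The fitted log2 differences, 6.47 ± 0.53 and 7.28 ± 0.64, passed in edgeR (adjusted p = 2.45e-07 and 1.09e-07), and were 6.63 ± 0.68 and 7.46 ± 0.71 without the 3 libraries with high Gata4. Trpv6 reached the count minimum for testing only through the colon libraries, where it was high. These adjusted p-values therefore add no support beyond the counts themselves.

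S100g, the cytosolic carrier of the same route, was at 0.706 to 21.3 CPM (median 4.24) in WT small intestine and 0.175 to 2.78 CPM (median 0.623) in WT colon. The ranges overlapped through 1 small intestine library, WT 964950, which is 1 of those with high Gata4. S100g fell in the colon, with a log2 difference of -2.86 ± 0.72 (edgeR adjusted p = 0.00461), or -3.17 ± 0.65 without the 3 small intestine libraries with high Gata4 (0.0018). In KO mice S100g was at 1.52 to 24.4 CPM (median 8.6) in the small intestine and 0.403 to 23.3 CPM (median 1.38) in the colon, a log2 difference of -1.28 ± 0.80 that did not pass (edgeR adjusted p = 0.197). Without colon KO library 964926, the one at 23.3 CPM, the difference was -2.81 ± 0.62 (edgeR adjusted p = 0.00134), and without the 3 small intestine libraries it was -1.48 ± 0.79 (0.134). Library 964926 was picked by its S100g value, so the fit without it adds no separate evidence. That library also had the highest Trpv6 (17.2 CPM) and Atp2b1 (556 CPM) and the lowest Heph (81.0 CPM) of the KO colon, with a pan-epithelial sum of 15563 CPM against 10567 to 12716 CPM in the other 6.

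The iron exporter Slc40a1 was at 20.8 to 121 CPM (median 78.1) in WT small intestine and 103 to 452 CPM (median 229) in WT colon, and at 14.5 to 122 CPM (median 88.8) and 140 to 324 CPM (median 215) in KO mice. The organs overlapped in WT mice and not in KO mice. It rose by 1.74 ± 0.39 and 1.54 ± 0.34 on the log2 scale (edgeR adjusted p = 0.00199 and 0.0013), and by 1.44 ± 0.34 and 1.35 ± 0.22 without the 3 libraries with high Gata4, which hold the 3 lowest Slc40a1 values of the small intestine. Heph was at 74.3 to 278 CPM (median 229) in WT and 267 to 386 CPM (median 336) in KO small intestine, against 136 to 157 CPM (median 143) and 81.0 to 164 CPM (median 144) in colon. The KO groups did not overlap, and Heph fell in the KO colon by 1.27 on the log2 scale (-1.27 ± 0.13, edgeR adjusted p = 6.27e-07, and -1.24 ± 0.13 without the 3 libraries). In WT mice the difference of -0.43 ± 0.25 did not pass (adjusted p = 0.171), and without the 3 libraries it was -0.65 ± 0.17 and passed (edgeR adjusted p = 0.00898). The difference between genotypes was tested and is given below with the interactions.

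Cybrd1 was at 10.1 to 17.4 CPM (median 11) in WT small intestine and 4.97 to 11.3 CPM (median 7.15) in WT colon. It fell by 0.67 on the log2 scale (-0.67 ± 0.18, edgeR adjusted p = 0.00654), and the call was lost at -0.56 ± 0.17 without the 3 libraries, 1 of which (WT 964952) holds the 17.4 CPM. Leaving out colon WT 964934 also ended that call. In KO mice Cybrd1 (-0.48 ± 0.10) and Slc11a2 (-0.41 ± 0.10) passed the FDR in edgeR (adjusted p = 0.00107 and 0.00183) but not the fold minimum. Atp2b1 was at 177 to 630 CPM in WT small intestine and 301 to 327 CPM in WT colon, and its difference of -0.33 ± 0.27 became -0.62 ± 0.16 and passed without the 3 libraries (edgeR adjusted p = 0.00663). Tfrc (142 to 236 CPM in WT small intestine, 143 to 214 CPM in WT colon) and Vdr (257 to 414 and 295 to 499 CPM) overlapped between organs in both genotypes.

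**Figure D4:**
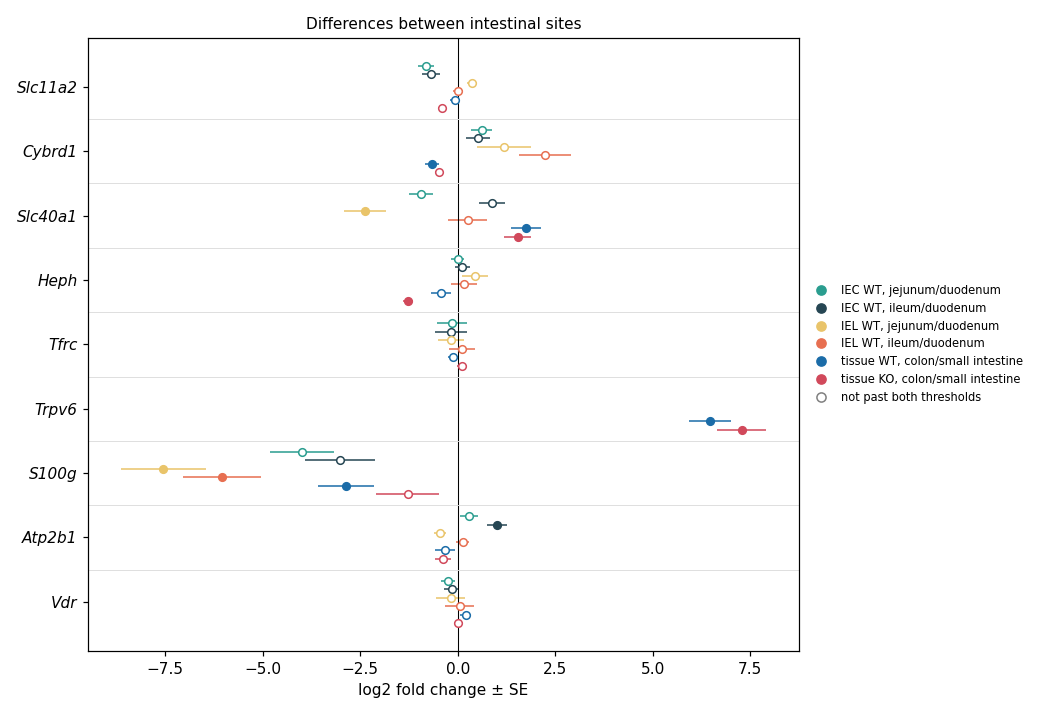
Log2 fold change (horizontal axis, points, with bars of 1 SE) of each gene between intestinal sites in 6 comparisons by colour, filled where the gene passed both thresholds and open where it did not. Trpv6 lies near 7 in the 2 colon comparisons, S100g is left of 0 throughout, and Slc11a2, Tfrc, and Vdr stay within 1 of 0.

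Between Btnl2-KO and WT mice, edgeR called none of the 9 genes in any of 8 comparisons. Over 64 member tests, edgeR called 0, with 5 at an unadjusted p under 0.05, DESeq2 called 1, and limma-voom called 4, all in ileal γδ IELs. Few genes of any kind were called by edgeR, given here as shares of all genes tested. They were 0, 0, and 0.00774% in IEC duodenum, jejunum, and ileum, and 0.00789, 0.00794, and 0% in γδ IELs of the same segments. In small intestine the share was 0.0202% (0.0135% higher, 0.00673% lower), and in colon 0.0269% (0.0134% in each direction). DESeq2 called 1.75% of genes in ileal γδ IELs (2 higher, 219 lower) and 1.19% in small intestine (152 higher, 25 lower). In the other genotype comparisons it called 0.0672% or less. limma-voom called 1207 of 12604 genes in ileal γδ IELs. By edgeR, 0 of 8 members were called in each IEC segment, with 0, 1, and 0 at an unadjusted p under 0.05 in duodenum, jejunum, and ileum. In γδ IELs, 0 of 7, 0 of 8, and 0 of 8 were called in the same order, with 0, 0, and 1 at an unadjusted p under 0.05. In tissue 0 of 8 were called in small intestine and 0 of 9 in colon, with 2 and 1 at an unadjusted p under 0.05. The 1 call by DESeq2 was Heph in small intestine. Without the libraries that stood apart, edgeR again called 0 members in each IEC segment and in small intestine.

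**Figure D5:**
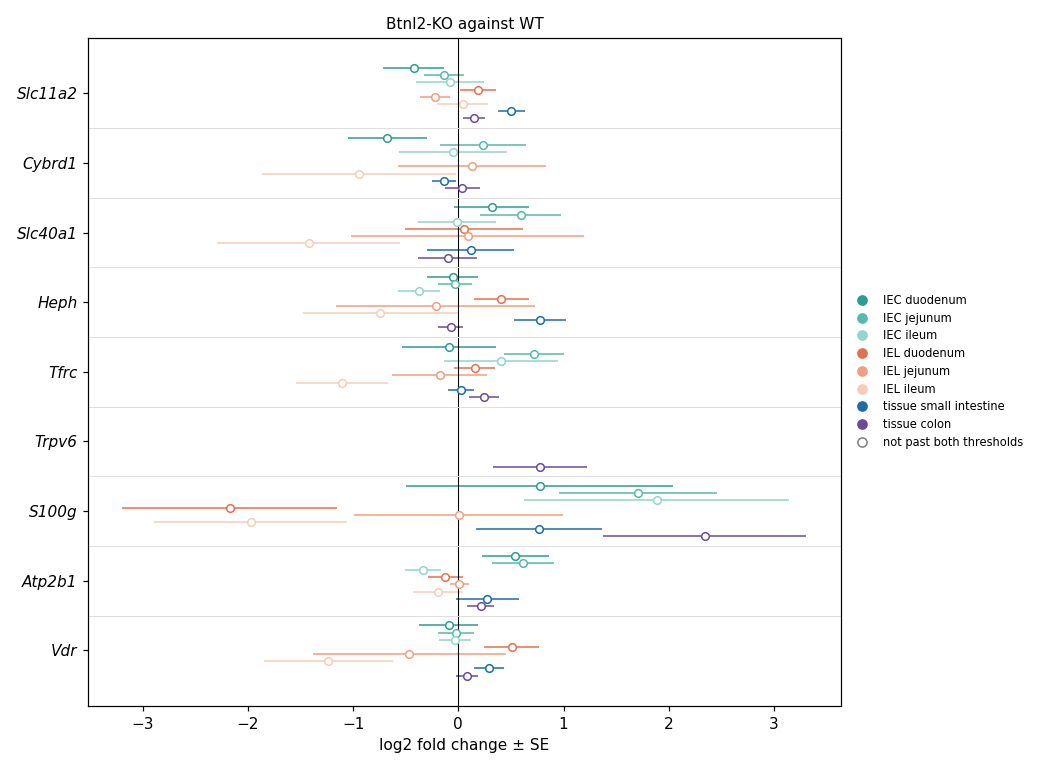
Log2 fold change of Btnl2-KO against WT (horizontal axis, points, with bars of 1 SE) for each gene in 8 comparisons by colour, all points open because no gene passed both thresholds in edgeR. The widest bars belong to S100g in duodenal and ileal IECs (SE 1.27 and 1.26) and to Slc40a1 in γδ IELs of the jejunum (1.11).

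In whole small intestine, Slc11a2 was at 59.3 to 82.4 CPM (median 73.9) in KO and 34.1 to 66.1 CPM (median 49.4) in WT mice, and Heph at 267 to 386 CPM (median 336) and 74.3 to 278 CPM (median 229). Both pairs overlapped in their ranges. The log2 differences were 0.50 ± 0.13 for Slc11a2 and 0.78 ± 0.25 for Heph (edgeR adjusted p = 0.113 and 0.126), and DESeq2 called Heph (0.79 ± 0.24, adjusted p = 0.0326). The summed villus enterocyte markers were 11495 to 30957 CPM in KO and 2085 to 13180 CPM in WT small intestine, and the pan-epithelial sums 14511 to 19639 and 9616 to 18861 CPM. With the pan-epithelial markers (their mean log2 CPM) as a covariate, the differences were 0.29 ± 0.11 and 0.34 ± 0.16. Without the 3 libraries with high Gata4 they were 0.34 ± 0.10 and 0.52 ± 0.19 (edgeR adjusted p = 0.398 and 0.417).

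In KO colon, S100g was at 0.403 to 23.3 CPM (median 1.38) against 0.175 to 2.78 CPM in WT colon, a log2 difference of 2.34 ± 0.96 (edgeR adjusted p = 0.972). It was 0.81 ± 0.67 without KO 964926 and 3.24 ± 1.08 without WT 964936. Trpv6 (0.77 ± 0.45) and the other 7 genes (-0.10 to 0.24) did not pass in colon either.

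In ileal γδ IELs, 7 of 8 tested members had lower fitted levels in KO mice, which is a description of estimates that did not pass. Tfrc was at 25.7, 22.0, and 49.6 CPM in KO and 24.7, 72.4, 93.9, and 91.7 CPM in WT libraries. Vdr was at 22.0, 3.82, and 42.8 CPM in KO and 28.0, 80.3, 58.7, and 50.6 CPM in WT libraries. The 2 groups overlapped in both genes. The log2 differences were -1.10 ± 0.44 for Tfrc and -1.24 ± 0.61 for Vdr (edgeR adjusted p = 0.532 and 0.578). The pan-epithelial sum was 1003 to 3517 CPM in the KO and 3414 to 8778 CPM in the WT ileum. With the mean log2 CPM of these markers as a covariate the differences were -0.07 ± 0.49 and 0.42 ± 0.30. Slc40a1, Heph, and S100g also turned from negative to positive, while Cybrd1 (-0.36) and Atp2b1 (-0.46) stayed negative. The genotypes barely overlapped in the pan-epithelial sum, so in the covariate fit genotype and epithelial content cannot be told apart. limma-voom with sample weights called Tfrc, Vdr, Heph, and Cybrd1 lower in KO mice in the fit without the covariate, among 1207 genes of all kinds.

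In IECs, Tfrc in the jejunum was at 454, 654, and 768 CPM in KO and 527, 297, and 311 CPM in WT libraries, overlapping through 1 library each, with a log2 difference of 0.72 ± 0.28 (edgeR adjusted p = 0.568) and 0.70 ± 0.39 without the 3 libraries in doubt, in a fit of all other IEC libraries. The IEC estimates for S100g moved most with those libraries, from 0.77 ± 1.27 to 1.74 ± 0.85 in the duodenum, from 1.71 ± 0.75 to 0.99 ± 1.01 in the jejunum, and from 1.88 ± 1.26 to -0.04 ± 1.0 in the ileum. Without them 1 KO library was left in the duodenum, and its spread was taken from the other groups. In the duodenal γδ IELs, S100g differed by -2.17 ± 1.02 (edgeR adjusted p = 0.997) and by -0.25 ± 0.58 without WT 1105579.

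Whether a site difference itself changed with genotype was tested as an interaction. In γδ IELs (ileum against duodenum) edgeR called 0 of 8 members, with 0 at an unadjusted p under 0.05, DESeq2 called 0, and 0% of 13360 genes were called. In tissue (colon against small intestine) edgeR called 0 of 9, with 1 at an unadjusted p under 0.05, DESeq2 called 0, and 0.0193% of 15540 genes were called. The Heph interaction in tissue was -0.85 ± 0.28 (edgeR adjusted p = 0.307), or -0.59 ± 0.22 without the 3 libraries with high Gata4, and that of Trpv6 was 0.85 ± 1.39, or 0.86 ± 1.88 without them. edgeR called 0 members without them.

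Other genes of the same routes were taken as 2 lists, of 28 genes of iron handling and 25 of calcium handling. In all 8 genotype comparisons edgeR called 0 genes of either list. In WT IECs it called 0 or 1 per list and comparison, where 0.767, 6.59, and 0.644% of all genes were called for jejunum against duodenum, ileum against duodenum, and ileum against jejunum. Epas1, which encodes the hypoxia-inducible factor HIF-2α that drives intestinal iron uptake genes, fell in the jejunum against the duodenum (-1.72 ± 0.23, edgeR adjusted p = 0.0146) and rose in the ileum against the jejunum (1.68 ± 0.25, 0.0233). Trf, which encodes transferrin, fell in the ileum against the duodenum (-2.11 ± 0.38, edgeR adjusted p = 0.0121), and Atp2a3, a pump of the endoplasmic reticulum, rose (1.35 ± 0.16, 0.00197).

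In WT γδ IELs, 5 of 22 tested iron genes rose and 5 fell in the jejunum against the duodenum, and 3 of 16 calcium genes rose and 3 fell, where 10.4% of all genes rose and 12.1% fell. Epas1 (-3.05 ± 0.83), the folate and haem carrier gene Slc46a1 (-1.31 ± 0.36), and Pcbp2, an iron chaperone gene (-1.11 ± 0.19), fell, and Arnt, the partner of the hypoxia factors, rose (1.10 ± 0.24). The calcium pump genes Atp2b4 (-1.16 ± 0.28) and Atp2a3 (0.88 ± 0.21) moved apart. For ileum against jejunum, 3 iron genes rose and 6 fell, and 5 calcium genes rose and 2 fell, where 11.4% of all genes rose and 10.5% fell, with Epas1 at 2.70 ± 0.83. For ileum against duodenum only Trf was called (-1.03 ± 0.19), where 2.11% of all genes were. In tissue, 7 of 24 iron genes rose and 4 fell in WT colon against small intestine, and 4 of 20 calcium genes rose and 7 fell, where 12.0% of all genes rose and 15.6% fell. In KO mice 8 and 5 iron genes and 5 and 8 calcium genes rose and fell, where 14.4% of all genes rose and 15.7% fell, and 7 and 5 and 4 and 8 without the libraries with high Gata4. The mitochondrial iron importer gene Slc25a37 fell in both genotypes (-1.57 ± 0.21 in WT, -1.93 ± 0.15 in KO), as did Cldn15, a tight junction gene (-1.49 ± 0.26 and -1.76 ± 0.25), while Hif1a (1.43 ± 0.09 and 1.47 ± 0.12), Atp2a3 (1.56 ± 0.16 and 1.51 ± 0.18), and the store-operated calcium sensor gene Stim1 (1.56 ± 0.10 and 1.59 ± 0.11) rose.

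The genes whose log2 CPM followed some of the members most closely are given as a description, since the libraries of a table share segments, genotypes, and runs. Over the 16 IEC libraries, Pearson's r with S100g was highest for Cnnm1 (0.94), Slc16a9 (0.93), and Tmprss15 (0.92), the last of which encodes enteropeptidase of the proximal small intestine. Slc40a1 was nearest to Cfap410 (0.90), Sult1c2 (0.88), and Paqr5 (0.86), and Atp2b1 to the bicarbonate cotransporter gene Slc4a4 (0.94). Heph was nearest to Enpep (0.88) and Vil1 (0.84), genes of brush border proteins, and then to Prex2 (0.83). Over the 27 tissue libraries, Heph was nearest to Iqgap2 (0.98), Myo5b (0.97), and Dgkq (0.96). Trpv6 was nearest to Eno3 (0.99), and 562 of 15540 genes had an r above 0.9 with it, so that this likeness sets no gene apart.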

How the data were processed

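The values are expected counts per gene, deposited by the authors in 1 table per material. Per the study's methods they were estimated with RSEM in ArrayStudio from sense-strand exon reads, and the submitters' processing notes give GRCm38 as the genome build, where the study's methods name a customized mouse genome. The labels name a stranded mRNA kit and the study's methods a low-input kit, so the library chemistry is uncertain. Expected counts were rounded (5.00 to 17.2% of values were not whole), and 100 identifiers with no gene name (0.254 to 9.24% of counts) were left out of library sizes and tests, as was 1 γδ IEL column that belongs to no sample.

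Groups came from the labels. A gene was tested where the number of libraries with 10 or more counts reached the size of the smaller group, in R 4.3.3 with edgeR 4.0.16 (TMM, quasi-likelihood test) over all genes, and called above a fold change of 1.5 where the Benjamini-Hochberg FDR was below 0.05. The SE of an edgeR difference was taken as its absolute log2 fold change divided by the square root of the quasi-likelihood F. It is therefore approximate, above all for groups near 0 counts. The step was tested on simulated data. Alternatives were DESeq2 1.42.0, limma 3.58.1 (voom with sample weights), RLE scaling, other filters, no fold minimum, all libraries of a table in 1 fit, the pan-epithelial markers (their mean log2 CPM) as a covariate, and leaving out each library. The fits without the libraries whose Fabp6 or Gata4 stood apart were added after the data were seen. The study's statistics text treats samples as biological replicates, but the labels tie no IEC or tissue library to a single animal, so p-values measure the spread between libraries. Library pairs of 1 group differed by more than sampling noise (lowest chi-square per degree of freedom 5.11).

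The members and gene lists were chosen with earlier results of these data known. The text names every member, Btnl2, Fabp6, and Gata4 as checks of the labels, up to 4 called genes of each pathway list by size of change, and, for some members, up to 3 of the genes most like them.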

Additional observations from a re-analysis of the deposited data

Results flagged for a closer look

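Within groups of 4 to 10 libraries, 9 of 66 sets of member values held 1 library whose gap to the next was above Dixon's 95% critical value. Chance gives about 1 in 20 for independent, normally distributed values. The values here were untransformed CPM and the sets share libraries, so that rate is only a rough guide and no excess is claimed. In WT duodenal γδ IELs, library 1105579 had S100g at 276 CPM and Trpv6 at 1.21 CPM, and library 1105582 had Vdr at 39.1 CPM where the others had 56.2 to 58.8 CPM. In KO colon, library 964926 accounted for 3 of the 9, with S100g at 23.3 CPM (others 0.403 to 3.53), Atp2b1 at 556 CPM (266 to 388), and Heph at 81.0 CPM (137 to 164). In WT colon, library 964936 had S100g at 2.78 CPM (others 0.175 to 0.737). In WT small intestine, library 964946 had S100g at 21.3 CPM (others 0.706 to 5.96), and library 964952 had Cybrd1 at 17.4 CPM (10.1 to 12.0). S100g was thus the member in 4 of the 9.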

How the results depend on the processing

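No direction of a member called in the main edgeR fits turned under any alternative. Vdr, called lower in the WT γδ IEL ileum with the covariate, had the opposite sign without it. Among genotype comparisons, counts of called members moved from 0 to 4 in ileal γδ IELs with limma-voom and to 1 in small intestine with DESeq2 and with all libraries in 1 fit. Among WT IEC comparisons, jejunum against duodenum gave 2 with DESeq2 and 0 to 1 when single libraries were left out. Ileum against duodenum (1 called) gave 2 with DESeq2, 0 with all libraries in 1 fit, and 0 to 1 with libraries left out. Ileum against jejunum (0 called) gave 1 with DESeq2, without the count filter, and with limma-voom, and 0 to 1 with libraries left out. In WT γδ IELs, jejunum against duodenum (2 called) gave 1 with all libraries in 1 fit, 3 with the covariate (with Heph) and with no fold minimum (with Atp2b1), and ileum against duodenum (1 called) gave 0 with limma-voom and 2 with the covariate. Ileum against jejunum (1 called) gave 2 with DESeq2, RLE, limma-voom, no fold minimum, and the covariate, 0 with all libraries in 1 fit, and 1 to 2 with libraries left out. In KO γδ IELs, ileum against duodenum (0 called) gave 1 with DESeq2, all libraries in 1 fit, and the covariate, and 0 to 1 with libraries left out (1 without 1105592). In KO tissue, colon against small intestine (3 called) gave 5 with limma-voom and with no fold minimum. The cause was not tested, except that no fold minimum lowers the threshold itself. Counts over all genes moved more, from 100 to between 0 and 427 for jejunum against duodenum in WT IECs, from 860 to between 0 and 1638 for ileum against duodenum, and from 84 to between 0 and 286 for ileum against jejunum. In WT γδ IELs they ran from 2076 to 4275 (2900 called), 125 to 542 (272), and 1276 to 4293 (2822), and in KO γδ IELs to 137 (1) with DESeq2. The ileal γδ IEL genotype count reached 1207 (0) with limma-voom, the small intestine one 219 (3) with all libraries in 1 fit, and the colon one 10 (4) with DESeq2. With no fold minimum, tissue comparisons gave 7115 (4185) in WT and 7561 (4463) in KO mice. Depth limits Trpv6 in small intestine and IECs and, at 0 to 21 counts per library, Cybrd1 in γδ IELs. No paired analysis was made, because each number names 1 library and the labels name no animals. Per the study's methods each small intestine was cut into 3 lengths, so libraries of different segments may share mice. The comparisons between sites treat their libraries as independent.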
